A study of Rattus norvegicus with 6 samples.

Results

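In 812 genes of rat primary beta cells, the most abundant transcript in the control libraries was one that the reference annotation does not hold. The members were chosen from the deposited transcript assembly and from the control libraries alone. A gene had to have at least 1 assembled transcript that matches an annotated transcript and at least 1 that is a new splice combination of the gene. It also needed a summed level of at least 5 RPKM (reads scaled to transcript length and to the size of the library, as the authors deposited them) in each of the 3 controls, and 1 new transcript that held 50% or more of that sum in all 3. Of 24579 genes in the assembly, each counted as 1 locus with 1 name, 10155 had both kinds of transcript and 4657 of these passed the level floor, so the 812 members were 17.4% of the genes that could qualify. In 1494 of the same 4657 genes (32.1%) an annotated transcript held 50% or more in the same way, and these genes are used below for comparison. In the other 2351 (50.5%) no single transcript did so in all controls.

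RNA sequencing compared beta cells with reduced Nova1 with control cells, in 3 batches. In the knockdown group, cells purified by flow sorting received 30 nM of an siRNA against Nova1 and were cultured for a further 48 h after 16 h of transfection. In the control group, cells of the same batches received the same amount of a commercial negative control siRNA. Both groups were primary cells with no genetic change, and the labels do not say whether a batch was 1 animal or a pool, so p-values measure the spread between batches. The reads assigned to transcripts numbered 130251486, 95394043 and 146453308 in the knockdown libraries of batches 1, 2 and 3, and those of the control libraries 292432076, 122637234 and 199930608. The insulin genes took 21.4%, 9.84% and 20.7% of knockdown reads and 20.02%, 13.2% and 21.7% of control reads, so both libraries of batch 2 were lowest. Nova1 itself had 7.76, 10.2 and 9.43 CPM (reads scaled to the size of the library) in knockdown libraries, against 20.6, 21.5 and 17.4 CPM in controls, with no overlap (log2 fold change -1.12, SE 0.11, limma adjusted p = 0.038). In RPKM the groups overlapped, with 1.38, 2.38 and 1.81 in knockdown libraries and 5.06, 2.83 and 2.03 in controls, and the limma adjusted p was 0.33 on log2(RPKM + 1). On reads it was 0.9998 without the batch block, 0.15 without batch 1 and 0.16 without batch 2. Nova1 was not a member, because its RPKM was below the floor in 2 of the 3 controls.

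A gene can give several messenger RNAs, through different start sites, different 3′ ends and different choices of exons in between. Nova1 is an RNA-binding protein of neurons, also present in beta cells, that binds pre-messenger RNA and changes which exons are kept. An assembly made from reads can hold exon combinations that a reference annotation lacks. Short reads are divided among the transcripts of a gene by a statistical estimate. A transcript listed at 0 can then be a failed estimate, and shares of transcripts that overlap over most of their length carry that uncertainty.

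Among the splice differences counted between a new main transcript and the annotated transcript of the same gene, the most frequent was in the first exon. Each new main transcript was set against the annotated transcript of the gene with the highest mean control level. The first splice donor differed in 545 of 812 members (67.1%), the last splice acceptor in 197 (24.3%), and both in 64 (7.88%). In 240 members the new transcript had at least 1 whole exon upstream of the annotated start, and in 88 at least 1 downstream of the annotated end. Exon choices inside the transcript were less frequent: a cassette exon (an exon kept or skipped as a unit) was added in 44 members, an annotated exon was skipped in 77, an intron was retained in 26, and another internal splice site was used in 141. In 550 members the new transcript held exactly 1 intron that the annotated one lacks. That count leaves out annotated introns missing from the new transcript and differences at its ends.

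New main transcripts had a median length of 2770.5 nt, against 2157.5 nt for the annotated transcripts, and the median difference within a gene was 138.5 nt. They were longer in 476 members (58.6%), by 1000 nt or more in 248, and shorter by 500 nt or more in 103. Among the genes with an annotated main transcript, the most abundant new transcript was longer in 64.5%. They ended downstream of the annotated end in 556 members, upstream of it in 43 and at the same base in 213. The 46 added cassette exons were 22 to 219 bp long, with a median of 94 bp, and 31 of them had a length divisible by 3. Of the 84 skipped exons, 57 had such a length.

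Among the 1494 genes with an annotated main transcript, the first exon of the most abundant new transcript differed in 54.1%, the last exon in 20.8%, and another internal splice site in 23.6%. Added cassette exons were as frequent there (5.42%) as in the members (5.42%). These shares are descriptions over genes, the classes were set with the values in view, and the differences between both sets of genes were not tested.

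**Figure D1:**
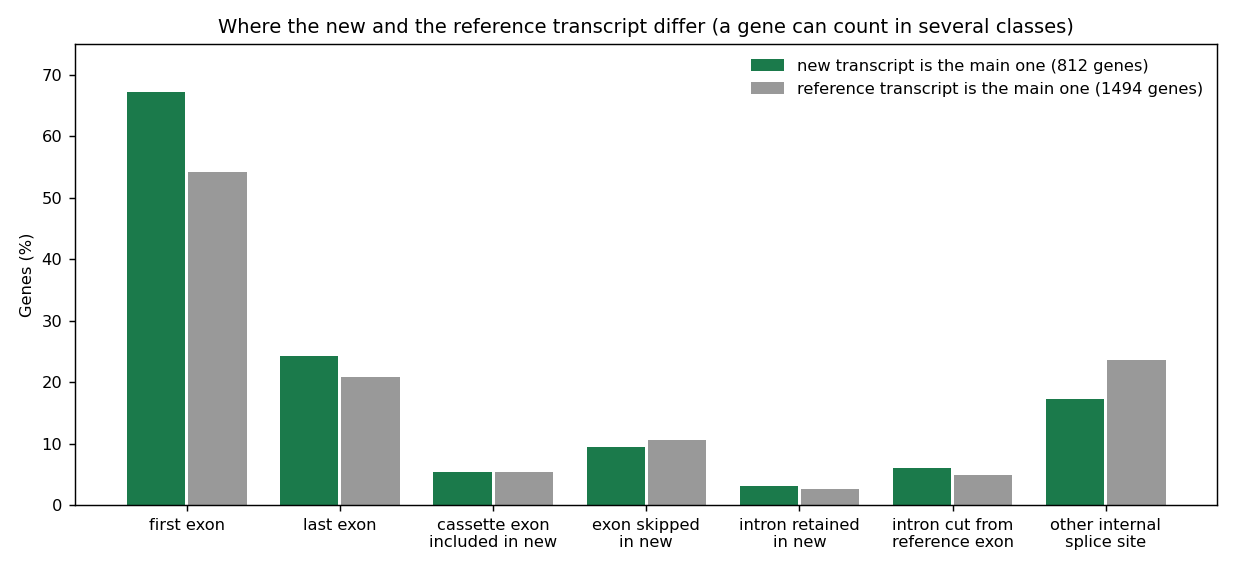
Percentage of genes (y axis) in each structural class (x axis), for the 812 genes with a new main transcript (green) and the 1494 genes with an annotated main transcript (grey). The first exon differed in 67.1% of genes with a new main transcript and in 54.1% of the others, and added cassette exons were at 5.42% in both.

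First exons were the most frequent splice difference, so the sequences around the annotated start are shown for 4 members. The rule that chose them was written after the sequences had been seen. It took the 4 members with the highest control level whose first exon differed and whose promoter is in the RefSeq table (assembly GRCr8). They are Eef1a1 (the translation elongation factor that brings transfer RNA to the ribosome), Rps23 and Rps15a (proteins of the small ribosomal subunit) and Bsg (basigin, a membrane glycoprotein). Each run covers 50 bases before the RefSeq start and 20 from it on, 5′ to 3′ on the gene's strand. Capitals mark the longest run of at least 6 pyrimidines (C or T) that overlaps the 10 bases on either side of the start. They also mark TATATAA between 40 and 11 bases before the start. Shorter runs that also qualify are left in lower case.
Eef1a1, chr8:88225050-88225119, minus strand: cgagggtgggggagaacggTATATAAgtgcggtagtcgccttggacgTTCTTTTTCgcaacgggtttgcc
Rps23, chr2:23814467-23814536, plus strand: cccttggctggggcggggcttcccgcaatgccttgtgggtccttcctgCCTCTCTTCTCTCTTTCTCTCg
Rps15a, chr1:181860265-181860334, minus strand: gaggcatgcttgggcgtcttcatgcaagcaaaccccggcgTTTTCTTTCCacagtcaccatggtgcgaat
Bsg, chr7:10650986-10651055, minus strand: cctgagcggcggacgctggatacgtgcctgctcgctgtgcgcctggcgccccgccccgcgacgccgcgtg

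Eef1a1 held both patterns, Rps23 and Rps15a held the pyrimidine run, and Bsg held neither. The pyrimidine run was no more frequent in the promoters of members than elsewhere, at 28.7% of the 593 member promoters in the table and 28.3% of all 27457. In all, 8 patterns were searched, and they were chosen after the sequences had been seen. TATATAA in that window, on either strand, was in 0.337% of member promoters and 0.521% of all. A C followed by 4 pyrimidines between 4 bases before and 8 bases after the start was in 14.7% of member promoters and 12.2% of all. In the 250 bases before the start, on either strand, TATAAA was in 7.25% of member promoters and 13.1% of all, TGACGTCA in 2.70% and 1.70%, CCAAT in 36.3% and 34.3%, CCGCCC in 63.2% and 32.4%, and CACGTG in 8.43% and 5.79%. These shares are descriptions with no test, and members were required to be expressed while the full table was not. The RefSeq start is not the start of the new transcript, whose own upstream sequence was not used here.

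The members with the highest control RPKM included Eef1a1, Chga, Rps16, Lgals3, Rps23, Serp1, Rpl23, Rpl31 and Rps15a. Eef1a1 and the ribosomal protein genes have near-identical copies elsewhere in the genome, so their levels and shares are uncertain. Chga encodes chromogranin A, a main soluble protein of the insulin granule. Its new transcript (chromosome 6, 135645047 to 135656365, plus strand, Rnor_5.0) held 93.7%, 86.5% and 89.5% of the gene's RPKM in knockdown libraries and 93.4%, 88.0% and 89.3% in controls. The values of both groups overlapped and followed the batch. The Chga transcript had 13 exons where the annotated one had 12, and it began 108 bp further upstream and ended 326 bp further downstream. The extra exon came from a short gap inside an annotated exon, 8.928 to 8.98 kb from the 5′ end of the new transcript. Both transcripts also held a shorter gap, from 9.058 to 9.064 kb. Whether these gaps are spliced introns was not tested. Lgals3 encodes galectin 3, a sugar-binding protein. Its new transcript had 5 exons against 6 and held 81.2%, 83.5% and 81.6% in knockdown libraries, against 81.8%, 82.7% and 82.2% in controls, again with overlap.

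Regulators of beta cell identity were also among the members. Neurod1, a transcription factor of islet cell development and insulin gene expression, had a new transcript with an extra first exon, which started 310 bp upstream of the annotated start and ended 739 bp beyond the annotated end (chromosome 3, 72974124 to 72978489, minus strand). Its share was 79.0%, 86.3% and 89.1% in knockdown libraries and 76.8%, 74.4% and 83.2% in controls. It was higher in the knockdown library of every batch, but the groups overlapped, and the share test gave an adjusted p of 0.45 in limma diffSplice. Foxa2, a forkhead factor of endoderm and islet genes, had a new transcript that started 540 bp downstream of the annotated start. Its share was 64.9%, 47.5% and 64.4% in knockdown libraries and 63.1%, 55.9% and 66.7% in controls, with batch 2 lowest in both groups.

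Of 20 beta cell identity and hormone processing genes that could qualify, 3 were members (Chga, Foxa2 and Neurod1). Of 50 RNA-binding splicing regulators, 8 were members, among them Celf1, Celf2, Hnrnpa2b1, Hnrnpa3, Hnrnph2, Hnrnpl and Srsf1. Of 19 ion channel genes, 2 were members (Hcn4, a pacemaker channel, and Trpm5, a calcium-activated cation channel). Of 12 apoptosis genes, 4 were members, among them Bad and Bax, which act at the mitochondrial outer membrane. Cadps was 1 of 13 exocytosis genes, and Eif2a was 1 of 15 on the list for endoplasmic reticulum stress. Eif2a encodes initiation factor 2A, not the alpha subunit of eIF2, so its place on that list does not make it a stress gene. Against the 17.4% over all genes that could qualify, these are small counts. None of the genes named from these lists had a called main transcript or a called gene level.

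Among the splicing regulators, the new transcript of Hnrnpl, which binds CA-rich RNA, held 56.4%, 57.2% and 52.6% in knockdown libraries and 59.96%, 59.98% and 59.9% in controls. The groups did not overlap, but the share test gave an adjusted p of 0.19 in limma diffSplice. The new transcript of Hnrnpa2b1 held 53.5%, 51.5% and 56.2% in knockdown libraries and 59.0%, 50.7% and 50.5% in controls, with overlap. The new transcript of Trpm5 was a 7-exon form that began 12443 bp downstream of the 24-exon annotated start, and it held 59.0%, 38.5% and 59.9% in knockdown libraries, against 66.2%, 50.5% and 74.8% in controls. Within each batch Trpm5 was lower in the knockdown library (adjusted p = 0.069 in limma diffSplice).

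Added cassette exons were described for the 3 members with the highest level. Mff, the mitochondrial fission factor, had an added exon of 60 bp (chromosome 9, 90643041 to 90643100), and its new transcript averaged 75.7% ± 3.69 in knockdown libraries and 74.6% ± 6.44 in controls (SD, n = 3 each). Atp6v1h, a subunit of the proton pump that acidifies granules and lysosomes, had an added exon of 126 bp (chromosome 5, 19077257 to 19077382), with 69.1% ± 3.13 in knockdown libraries and 70.2% ± 4.88 in controls. Both differences were smaller than the spread between libraries. Ptprf, a receptor tyrosine phosphatase, had an added exon of 27 bp (chromosome 5, 140844383 to 140844409), with 32.7% ± 55.0 in knockdown libraries and 72.7% ± 18.4 in controls (adjusted p = 0.70 in limma diffSplice).

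**Figure D2:**
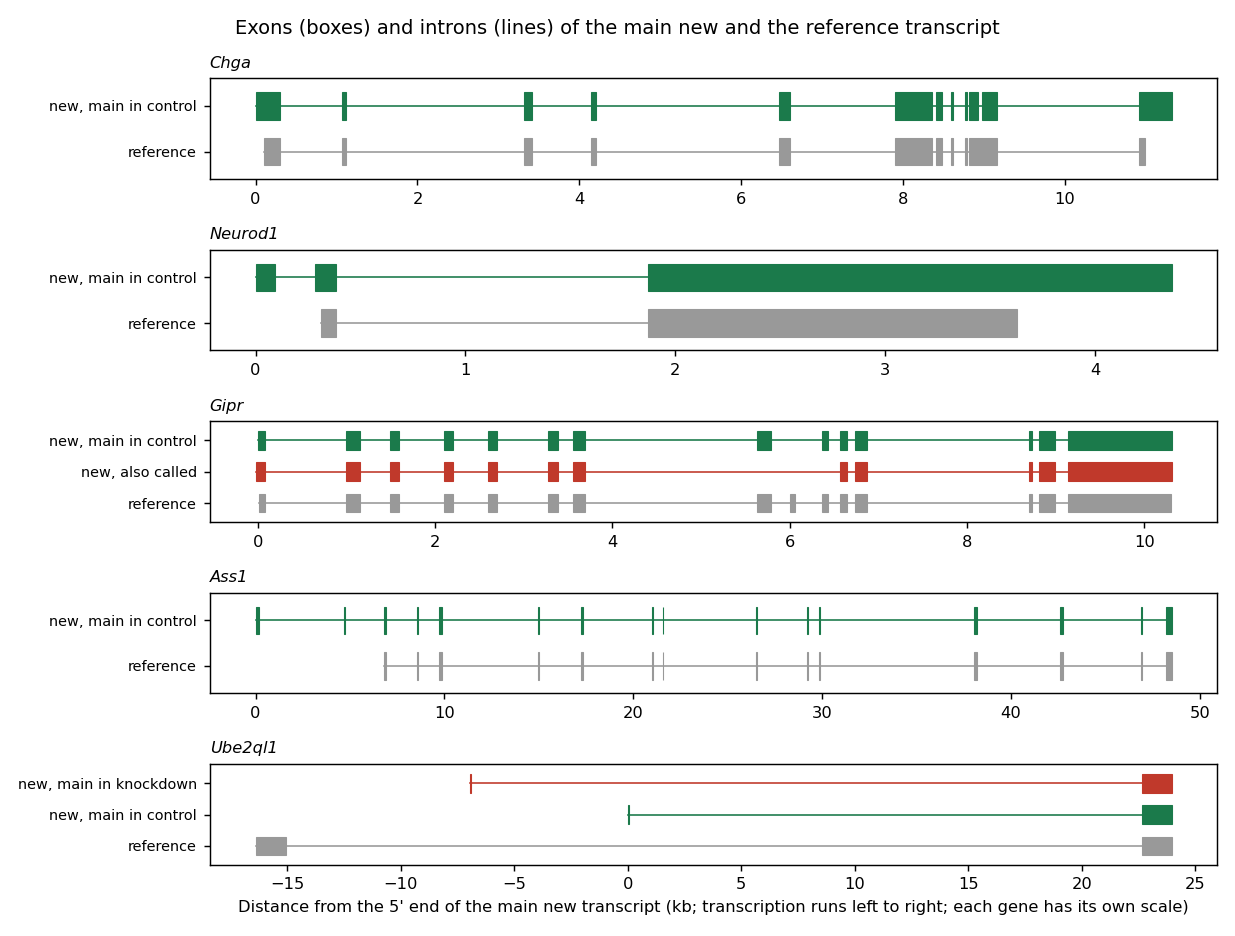
Exons (boxes) and introns (lines) of the new main transcript (green), of a further new transcript (red) and of the annotated transcript (grey) of 5 genes, by distance in kb from the 5′ end of the new main transcript. Chga has a short gap inside an annotated exon, and whether it is a spliced intron was not tested. Neurod1 and Ass1 gain exons upstream, and Gipr lacks an annotated exon of 61 bp. The Ube2ql1 transcripts share the second exon but not the first.

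Across the members, the new main transcript kept most of the gene's RPKM in both groups. Its mean share had a median of 69.0% in knockdown libraries, with a range of 2.01% to 100%, and of 73.0% in controls, with a range of 51.6% to 100%. The median over members was 71.3%, 70.4% and 71.3% in knockdown libraries 1, 2 and 3, and 72.0%, 72.5% and 73.2% in controls. In 600 members (73.9%) the new transcript held 50% or more in all 3 knockdown libraries as well, in 200 it was below 50% in 1 or 2 of them, and in 12 in all 3. Among genes with an annotated main transcript, 1218 of 1494 (81.5%) held 50% or more in all 3 knockdown libraries. In 19 of them (1.27%) the share was below 50% in all 3, beside 1.48% of members. The knockdown mean was within 5 percentage points of the control mean in 476 members (58.6%), at least 20 points lower in 83 (10.2%) and at least 20 points higher in 4. Those limits were set with the values in view.

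The rule read the control libraries of this same comparison, so nothing is drawn from the direction over all members. The median change was -0.96 points in members and -1.21 points in the genes with an annotated main transcript, which were chosen on the same controls. With the same rule read in the 3 knockdown libraries, 890 genes qualified and their median change was 1.44 points. Both rules shared 587 genes, which were 72.3% of those chosen in controls and 66.0% of those chosen in knockdown libraries. Just inside the limit, the lowest control share was 50.01% for Sf3b2, 50.05% for Smad9 and 50.1% for Cdc42, and just outside it was 49.996% for Ggact and 49.96% for Usf2.

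**Figure D3:**
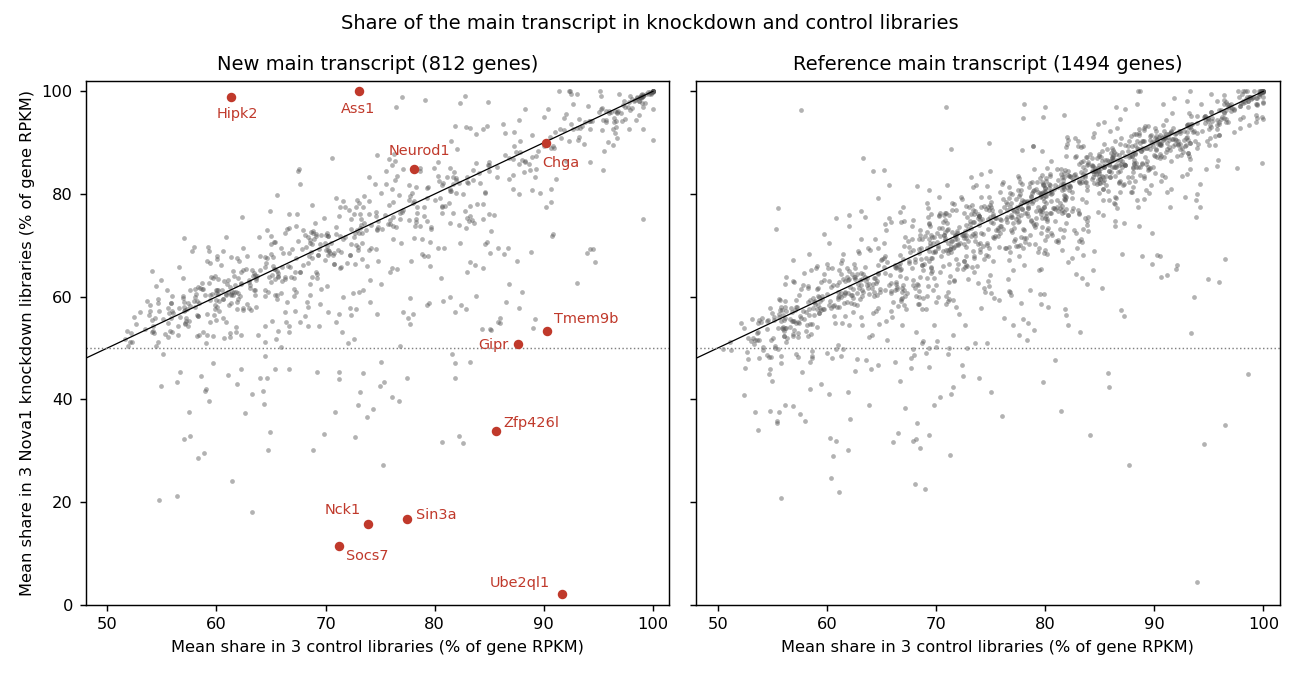
Mean share of the main transcript in 3 Nova1 knockdown libraries (y axis, % of the gene's RPKM) against its mean share in 3 control libraries (x axis), 1 point per gene, for new (left) and annotated (right) main transcripts; the line marks equal shares, the dotted line 50%, and red points are named genes. Points far below the line are found in both panels. The share was at least 20 points lower for 10.2% of genes on the left and 5.49% on the right. The sets also differ in transcripts per gene and in level, and the difference was not tested.

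Differences between libraries of one group were as large as those between groups. The median absolute difference in share over members was 4.62, 5.26 and 3.98 points between knockdown and control of batches 1, 2 and 3. It was 4.87 to 6.99 points between knockdown libraries and 4.71 to 5.22 points between controls. Shares varied more where more transcripts were assembled: the absolute change had a median of 2.56 points in the 262 members with 2 transcripts and 5.57 points in the 128 members with 6 or more. A mean share at least 20 points lower in knockdown libraries was found in 3.82% of the members with 2 transcripts and in 22.7% of those with 6 or more. Among genes with an annotated main transcript, these percentages were 3.58% and 10.4%. Those genes more often had only 2 transcripts (46.7%, against 32.3% of members). With 3 to 5 transcripts, such falls were in 10.4% of members and 6.82% of those genes. Under 10 RPKM in controls they were in 10.9% of members and 11.8% of those genes. From 10 to 30 RPKM they were in 12.9% and 5.59%, and over 30 RPKM in 4.43% and 1.84%. The difference between both sets of genes was not tested. In 17 members the new transcript was listed at 0 in a knockdown library, in 11 of them in 1 library and in 6 in 2.

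Annotated transcripts were listed at 0 in all 3 controls in 76 members, and in all 6 libraries in 51 of these. In the other 25 an annotated transcript was above 0 in at least 1 knockdown library. In 11 members the new transcript was listed with 100% of the RPKM in every control, among them Slc39a5, a zinc transporter, and Gpam, an enzyme of triglyceride synthesis. By the group mean, another transcript was the main one in knockdown libraries in 29 members (3.57%), an annotated transcript in 17 and a further new transcript in 12. Among the 1494 genes with an annotated main transcript this was so in 50 (3.35%).

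Few transcript shares passed the test of knockdown against control. Of 812 members, 789 were tested with limma diffSplice, and in the other 23 fewer than 2 transcripts passed the read filter. A called transcript (adjusted p below 0.05 over all transcripts tested) was present in 7 members, and over all 9538 genes tested 0.702% had one. The new main transcript itself was called in 4 members, 2 of them higher and 2 lower in knockdown libraries, and over all 31429 transcripts tested 0.302% were called. An unadjusted p below 0.05 was found for 109 new main transcripts (13.4% of members), for 213 annotated main transcripts (14.3%) and for 9.01% of all transcripts tested. The share was lower in every knockdown library than in every control in 46 members and higher in 29, and over all transcripts tested 4.62% were lower and 4.75% higher in this way. Because the rule read the control libraries of the same comparison, these counts are given as descriptions.

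Socs7, a member of the family of cytokine signalling suppressors, had the larger fall of the 2 called ones. Its new main transcript (chromosome 10, 85104269 to 85126536, plus strand) began 17221 bp downstream of the annotated start and ended 7577 bp beyond the annotated end. Its share was 18.4%, 13.3% and 2.83% in knockdown libraries and 63.5%, 79.5% and 70.8% in controls, so every knockdown value was far below every control (limma diffSplice adjusted p = 0.031). A further new transcript of 5 exons held 51.8% ± 8.20 in knockdown libraries and 0.96% ± 1.66 in controls (SD, n = 3 each), and its own test gave an adjusted p of 0.25 in limma diffSplice. The Socs7 gene level was 24.6 ± 2.96 RPKM in knockdown libraries and 19.8 ± 1.96 RPKM in controls (limma adjusted p = 0.18). The call was lost when any 1 batch was left out and among transcripts with at least 10% of their gene.

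Gipr encodes the receptor for the gut hormone GIP, which raises insulin release after a meal. Its new main transcript (chromosome 1, 81329936 to 81340245, minus strand) skipped an annotated exon of 61 bp and held 43.6%, 29.7% and 79.3% in knockdown libraries, against 87.4%, 93.9% and 81.6% in controls. The groups did not overlap, but the values of batch 3 were close, and the fall was called (limma diffSplice adjusted p = 0.042). A further new transcript of 12 exons held 29.3% on average in knockdown libraries and 3.32% in controls (limma diffSplice adjusted p = 0.042). The level of the whole gene was 6.03, 53.9 and 6.35 RPKM in knockdown libraries and 5.76, 50.5 and 5.71 RPKM in controls, so both libraries of batch 2 stood far above the others. The call was lost without batch 1, without batch 2, without the batch block (limma diffSplice adjusted p = 0.79), on log2 RPKM and among transcripts with at least 10% of their gene.

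Ass1 and Slc39a9 were the members whose new transcript rose. Ass1 encodes argininosuccinate synthase, which joins citrulline to aspartate on the way to arginine. Its new transcript had 2 more exons upstream, starting 6809 bp before the annotated start (chromosome 3, 15686793 to 15735300, minus strand). It held 100% in every knockdown library, against 71.4%, 63.2% and 84.6% in controls (limma diffSplice adjusted p = 0.011). The annotated Ass1 transcript was listed at 0 RPKM in the 3 knockdown libraries and had 3.40, 9.96 and 1.63 RPKM in controls. Slc39a9 encodes a zinc transporter of the ZIP family, and its new transcript ended 3323 bp beyond the annotated end. It held 100% in every knockdown library, against 92.1%, 87.9% and 94.2% in controls (limma diffSplice adjusted p = 0.029), and the annotated transcript was listed at 0 RPKM in the 3 knockdown libraries and at 1.87, 2.87 and 1.49 RPKM in controls. Both calls rest on an annotated transcript listed at 0 in knockdown libraries, and whether these were failed estimates was not tested. Without the batch block, Ass1 lost its call and Slc39a9 kept it. On log2(RPKM + 1) both lost it, and on log2(RPKM + 0.1) Ass1 lost it and Slc39a9 kept it. Slc39a9 also lost it with a stricter read filter (limma diffSplice adjusted p = 0.11).

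In the other 3 members with a call, a minor transcript passed the test while the main one did not. They were Ubl3, a ubiquitin-like protein, Slc25a46, a mitochondrial outer membrane protein, and Abcb9, a lysosomal peptide transporter. In Ubl3 the called transcript was listed at 0 in the 3 knockdown libraries and averaged 0.62% in controls. In Slc25a46 it averaged 8.11% in knockdown libraries and 1.78% in controls, and in Abcb9 an annotated transcript was listed at 0 in knockdown libraries and averaged 5.98% in controls.

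Some of the largest differences in mean share did not pass the test. Ube2ql1, of the ubiquitin-conjugating enzyme family, had a new main transcript with 0%, 6.03% and 0% in knockdown libraries and 94.0%, 93.2% and 87.9% in controls (limma diffSplice adjusted p = 0.096). A further new transcript with another first exon held 57.3% ± 2.45 in knockdown libraries and 0.097% ± 0.168 in controls, and the annotated one averaged 40.7% in knockdown libraries and 3.98% in controls. These 3 Ube2ql1 transcripts overlap in their second exon and differ in the first. Sin3a, a scaffold of a transcriptional corepressor complex, had 0%, 0% and 49.9% in knockdown libraries and 66.6%, 77.3% and 88.5% in controls (limma diffSplice adjusted p = 0.55). Nck1, an adaptor of tyrosine kinase signalling, had 0%, 0% and 46.9% in knockdown libraries and 65.1%, 98.7% and 57.8% in controls (limma diffSplice adjusted p = 0.80). In both genes the knockdown libraries were split between 0 and nearly 50%. The new transcript of Zfp426l, a zinc finger gene, had 14.99%, 39.5% and 47.1% in knockdown libraries and 85.1%, 91.0% and 80.9% in controls, without overlap (limma diffSplice adjusted p = 0.19). In the other direction, Hipk2, a nuclear serine and threonine kinase, had 99.1%, 99.1% and 98.7% in knockdown libraries and 81.0%, 51.4% and 51.6% in controls (limma diffSplice adjusted p = 0.36). Samd8, a sphingolipid enzyme, averaged 96.8% ± 1.54 in knockdown libraries and 76.4% ± 7.10 in controls (SD, n = 3 each). Tln1, the talin that links integrins to actin, averaged 98.3% ± 0.922 in knockdown libraries and 79.2% ± 23.5 in controls. Hfe, a regulator of iron uptake, averaged 84.4% ± 4.82 in knockdown libraries and 67.5% ± 3.85 in controls. None of these 3 shares was called, with limma diffSplice adjusted p of 0.24, 0.62 and 0.067.

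**Figure D4:**
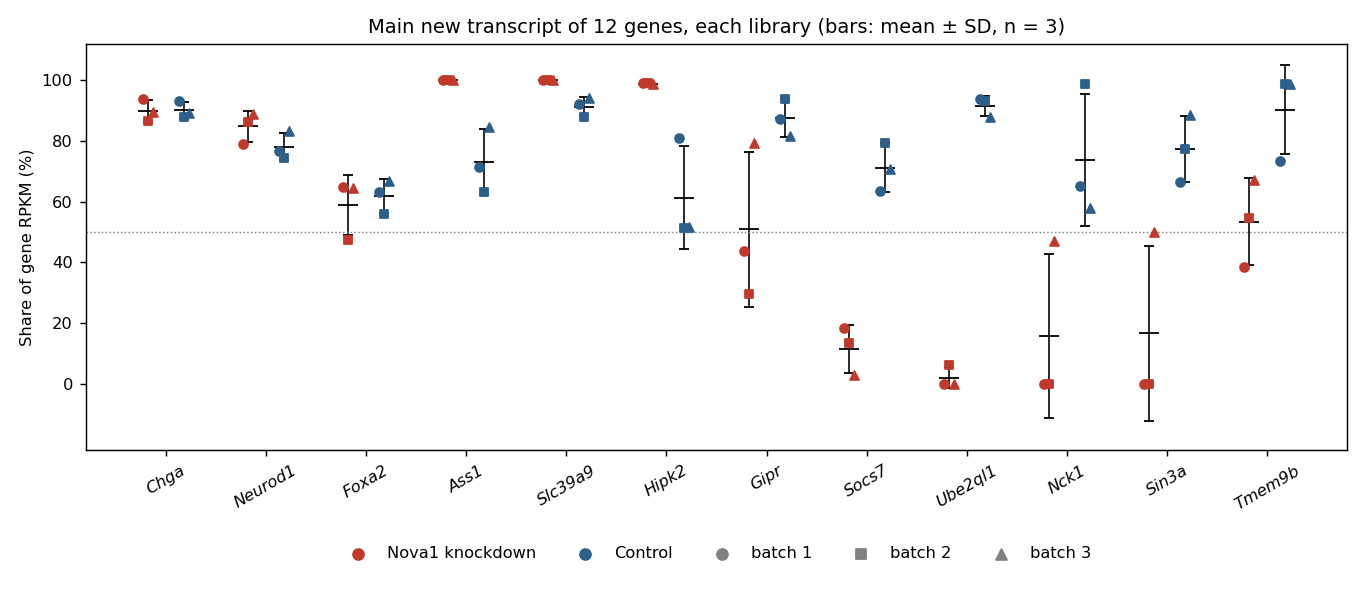
Share of the new main transcript (y axis, % of the gene's RPKM) in each library for 12 members (x axis), knockdown in red and control in blue, with 1 symbol per batch and bars for mean ± SD (n = 3). Chga, Neurod1 and Foxa2 overlap between groups, while Socs7 lies below 20% in every knockdown library and above 60% in every control.

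All 812 members were tested with limma voom, as the level floor implies. The gene level was called in 31 members, 27 lower and 4 higher in knockdown libraries. Over all 15983 genes tested, 1.71% were called, 1.2% lower and 0.513% higher. In the genes with an annotated main transcript, which met the same floor, 53 of 1494 (3.55%) were called, beside 3.82% of members. The rule set its level floor in the controls alone, and the 15983 genes had no such floor. In 21 members the gene RPKM was below the floor in a knockdown library. These counts and their directions are therefore given as descriptions. The median log2 fold change over members was -0.02. In bulk samples, fewer cells of a type and less RNA per cell cannot be told apart.

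Among the genes that fell, Tmem9b had 32.5, 27.9 and 44.1 RPKM in knockdown libraries and 62.6, 44.3 and 68.2 RPKM in controls (log2 fold change -1.05, SE 0.06, limma adjusted p = 0.036). The other large falls were Slc9a9, an endosomal sodium and proton exchanger (log2 fold change -0.93), Mettl9, a histidine methyltransferase (-0.81), Idi1, an enzyme of isoprenoid and cholesterol synthesis (-0.69), and Fam134b, a receptor for autophagy of the endoplasmic reticulum (-0.66). The 4 genes that rose were Stk38, a kinase of the Hippo family (0.62), Ube2ql1 (0.45), Adam9, a membrane metalloprotease (0.39), and Cnot6, a deadenylase subunit (0.37). All 4 had a limma adjusted p between 0.040 and 0.046. These values rest on summed reads, which are not scaled to transcript length, and on log2(RPKM + 1) the log2 fold change of Ube2ql1 was 0.087 (limma adjusted p = 0.43). In 20 of the 31 the share of the new transcript differed by less than 5 points between group means, and in 8 by 10 points or more. Mettl9 is an example of the first kind, with 54.0%, 64.4% and 59.0% in knockdown libraries and 56.5%, 63.2% and 55.0% in controls. Tmem9b is one of the second, with 38.4%, 54.7% and 67.0% in knockdown libraries and 73.4%, 98.7% and 98.8% in controls, although its share was not called (adjusted p = 0.28 in limma diffSplice). None of the 31 genes had a called new main transcript. No member was called at gene level without the batch block or on log2 RPKM, and 0 to 4 were when a batch was left out, so whether more genes were called by level or by share depends on the fit.

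Markers of other cell types were present among the members. Of 5 acinar genes that could qualify, Cpa1, Cpb1 and Pla2g1b, which encode digestive enzymes of the exocrine pancreas, were members. All 23 measured acinar markers were above 0 in at least 1 library, and their summed level was 450.1, 305 and 147 CPM in knockdown libraries and 595, 388 and 202 CPM in controls, so each knockdown library was below its partner. Their median log2 fold change was -0.43 over 24 gene models, 1 of them called lower. The islet non-beta list summed to 7759, 14746 and 10841 CPM in knockdown libraries and 5806, 14059 and 8736 CPM in controls, so each knockdown library was above its partner, with no gene called. Of 15 stellate and fibroblast markers tested, 3 were called higher. Their summed level was 584, 990 and 506 CPM in knockdown libraries and 628, 954 and 464 CPM in controls. The groups thus overlapped, and the knockdown library of batch 1 was below its partner. The summed beta cell list had 114253 to 252714 CPM in knockdown libraries and 151939 to 262106 CPM in controls. C1qa, a complement gene of macrophages, was a member and fell at gene level, with 7.95, 7.04 and 7.30 RPKM in knockdown libraries and 10.6, 9.65 and 9.67 RPKM in controls (log2 fold change -0.47, SE 0.07, limma adjusted p = 0.046), a call that was lost when any 1 batch was left out. The immune markers summed to 25.9, 31.1 and 18.1 CPM in knockdown libraries and 22.7, 21.8 and 19.1 CPM in controls, with Cd3e at 0 in every library. Their median log2 fold change was 0.96 over 13 tested gene models, opposite to C1qa, with 1 called higher and C1qa the 1 called lower. The part of such cells in these values was not tested.

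**Figure D5:**
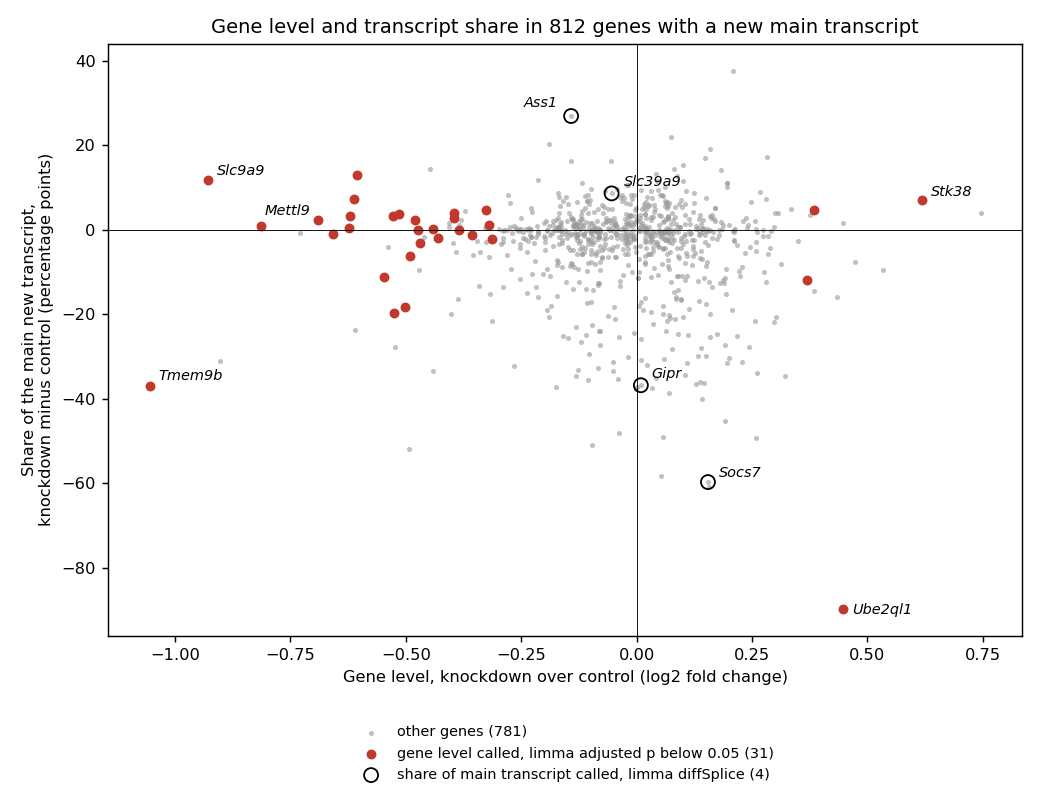
Difference in share of the new main transcript between knockdown and control means (y axis, percentage points) against the log2 fold change of the gene level (x axis, knockdown over control) for 812 members; red points are the 31 members called at gene level and rings the 4 members whose new main transcript was called. No point is both red and ringed.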

How the data were processed

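The members and gene lists were chosen with earlier results of these data known. Reads were aligned with TopHat to Rnor_5.0, per the submitters' processing notes. For each library the authors deposited, as text attributes of each transcript, its estimated reads, its length and its RPKM, and the assembly gives the exons and class codes, per the file headers and contents. The program that divided reads among transcripts is not given in the sources used here. Because these values are held as attribute text, no count model was run, and limma 3.58.1 (R 4.3.3) was used on the estimated reads.

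A transcript or gene was kept if it reached, in 3 or more libraries, a rate worth 10 reads at median depth, and 15 reads over all. Library scaling used a trimmed mean of log ratios, with 30% trimmed by ratio and 5% by level. Voom was fitted with batch as a block, leaving 2 residual degrees of freedom, for gene sums and, with diffSplice, for transcripts against the rest of their gene. Benjamini-Hochberg adjustment ran over the whole table, at a threshold of 0.05. Both steps were tested on simulated reads. Those reads were drawn for each transcript separately, so the test cannot show the effect of errors in dividing reads among transcripts. Shares are percentages of the gene's summed RPKM.

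The batch numbers in the titles pair the libraries. Deviations from the group mean correlated between knockdown and control at 0.58, 0.87 and 0.78 in batches 1, 2 and 3 for gene levels, and at 0.11, 0.11 and 0.017 for member shares. Named genes are the members highest in RPKM, those called or with the largest changes, up to 4 per gene list, those nearest the limit, and those highest in RPKM with a new cassette, first or last exon. Other names (Bsg, Ggact, Usf2, Slc39a5, Gpam and the remaining list members) were chosen after their values were seen. Some genes that the rule takes are not reported here.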

Additional observations from a re-analysis of the deposited data

How the results depend on the processing

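The number of members depended on the rule. It was 516 at a share of 60%, 233 at 75%, 1351 at a floor of 1 RPKM, 496 at 10 RPKM and 2024 with all new transcripts of a gene summed. With shares from reads, by locus alone, or read in the knockdown libraries it was 885, 793 and 890, and with 1 control left out 1011 to 1063. The median change in share was -0.66 from reads, -1.41 at a floor of 1 RPKM, -0.81 at 75%, and -0.96 to -0.75 with a batch left out.

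Members with a called transcript numbered 24 to 31 with a batch left out, 17 without a filter, 11 and 12 with log2(RPKM + 1) and log2(RPKM + 0.1), and 3 among transcripts with at least 10% of their gene. Called new main transcripts numbered 7 to 13 with a batch left out and 8 without a filter. Without the replicate block these counts were 7 and 3, of which 3 and 2 were the members called with it. Of the 11 and 12 called on log2 RPKM, 1 and 3 were among the 7 reported, and with a batch left out 3 to 5 were. Members called at gene level numbered 0 without the replicate block, 0 to 4 with a batch left out, 9 with library totals, 19 without a filter, 15 with a stricter filter, and 0 and 0 with log2(RPKM + 1) and log2(RPKM + 0.1).

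Of 154 alternatives for 15 named results, 66 kept the call, 88 lost it and none reversed. The causes were not tested. Control libraries were deeper than their knockdown partners, and with 3 batches and 2 residual degrees of freedom single calls are fragile.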
